A study of Mus musculus with 10 samples.

Results

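The genes described here are the matrix metalloproteinases (MMPs), their tissue inhibitors (TIMPs), the ADAM, ADAMTS and ADAMTS-like families and the lysyl oxidases, chosen by gene symbol among the protein-coding genes of the deposited table. They number 88 of the 54532 genes in it. MMPs and ADAMTS proteases cut collagens, proteoglycans and other components of the extracellular matrix, TIMPs bind and block these enzymes, and many ADAMs release the outer part of membrane proteins. Lysyl oxidases oxidize lysines of collagen and elastin so that the fibers become crosslinked. In the obstructed kidney, where matrix builds up between the tubules, these genes are expressed by fibroblasts, macrophages, neutrophils and tubular cells, among others.

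Bulk RNA-seq was performed on kidneys of wild-type C57BL/6 mice with unilateral ureteral obstruction (UUO), to ask how dimethyl malonate (DMM), an inhibitor of succinate dehydrogenase, changes the obstructed kidney. Male mice aged 8 weeks had the left ureter ligated, received PBS as control or DMM at 40 mg/kg intraperitoneally every other day, and were killed 14 days after surgery. There were 5 PBS and 5 DMM libraries, each from a separate mouse. All mice were obstructed and no unobstructed kidney is among these samples, so each difference is between treated and untreated obstructed kidneys. Total counts were 16457495 to 18078777 in PBS libraries and 15722527 to 19475833 in DMM libraries.

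The deposited group means give PBS replicate 3 and DMM replicate 1 a weight of 0, and no reason for this is given in the sources used here. The number of replicates stated in the methods is that of all libraries of a group, which the deposited means do not hold. Results are therefore given over all 10 libraries and over the other 8. This choice bears on the genes described: PBS replicate 3 was the lowest PBS library for 38 of the 62 tested members (61.3%, against 29.5% of all tested genes), and DMM replicate 1 was the highest DMM library for 31 of them (50.0%, against 21.0%). Libraries kept in the 8 were also extreme for many members, in the direction of the difference: PBS replicate 4 was the highest PBS library for 29 (46.8%, against 23.3%) and DMM replicate 3 the lowest DMM library for 23 (37.1%, against 16.0%). Against that direction, DMM replicate 4 was the highest DMM library for 24 (38.7%), near its share of all genes (37.7%). In the direction of the difference, it was the lowest DMM library for 19 (30.6%, against 40.1%), among them Mmp2, Mmp7, Mmp15 and Adamtsl5. Leaving PBS replicate 3 and DMM replicate 1 out thus removes low PBS and high DMM values for many members, and the larger differences over 8 libraries have to be read with this. DMM replicate 4 stood apart from the other 9 libraries, at 123 on the first principal component where the others lay between -20.7 and -2.36. Genes of the shortest tertile by length were shifted in it by a median of -0.567 on the log2 scale against the other 9 libraries, and those of the longest tertile by 0.432. It held 3159 CPM (counts scaled to library size by TMM) of the mitochondrial ribosomal RNA mt-Rnr2, against at most 492 elsewhere.

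Of the 88 members, 62 had enough counts to be tested: 19 of 22 MMPs, 3 of 4 TIMPs, all 5 lysyl oxidases, 15 of 19 ADAMTS, all 5 ADAMTS-like genes and 15 of 33 ADAMs. Of the 26 left out, 13 had no read in any library, among them 11 ADAMs, Mmp1b and Adamts19. The other 13, which include Timp4, Mmp10 and Adamts13, reached at most 33 counts in a library. By length-scaled level (FPKM, as deposited) Timp2 was the most abundant member at 98.6 ± 27.1 FPKM (SD, n = 10), followed by Adamts1 at 89.4 ± 12.9, Timp3 at 77.7 ± 11.8 and Timp1 at 74.9 ± 55.0. These 4 levels lie within 1 SD of Timp1 and their order is not separated by the spread. Mmp14 (47.7 ± 16.1 FPKM) and Mmp2 (38.3 ± 18.0 FPKM) were the most abundant MMPs, and Adam10 (48.8 ± 7.16 FPKM) was the most abundant ADAM.

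Over all 10 libraries no member was called. The calling rule was a fold change above 1.5 together with a p below 0.05 from the quasi-likelihood test of edgeR, adjusted by Benjamini-Hochberg over all tested genes. By this rule 0 of 62 members passed in either direction, as did 0.0% of the 16505 tested genes lower and 0.0% higher in DMM. DESeq2 also called 0 members, against 0.201% of 16430 genes lower and 0.073% higher after adjustment. At an unadjusted p and the same fold change DESeq2 gave 4 members lower (6.45%), against 4.54% of all genes. It gave 1 higher (1.61%), against 2.59%. With edgeR at an unadjusted p below 0.05 and the same fold change, 3 members (4.84%) were lower in DMM, against 4.11% of all tested genes. By this rule 0 were higher, against 1.91%. The members' share of lower genes is thus near the background. In 0 members did the groups fail to overlap, against 1.16% of all genes lower and 0.794% higher. The median log2 fold change of the tested members was -0.19, against 0.02 for all tested genes, and 43 of 62 (69.4%) lay below 0, against 47.2%.

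Over the 8 libraries held in the deposited group means 8 members (12.9%) were called lower in DMM by the same edgeR test after Benjamini-Hochberg adjustment, against 3.56% of 16550 tested genes, and 0 were called higher, against 2.73%. They were Mmp2, Mmp7, Mmp14, Mmp15, Mmp25, Adamts2, Adamtsl5 and Loxl3. At an unadjusted p below 0.05 with the same fold change limit, 18 members were lower, against 7.24% of all genes, and 1, Adam22, was higher, against 6.45%. Adam22 rests on DMM replicate 4: its log2 fold change went from 0.90 to 0.30 once that library was left out, with an unadjusted p of 0.0815. The groups did not overlap in 20 members with lower DMM values, against 10.6% of all genes, and in 1 with higher values, Timp3, against 9.45%. The median log2 fold change of members was -0.44, against 0.02 for all genes. DESeq2 called 14 of 69 members lower and 0 higher, against 4.51% and 3.71% of the 20165 genes it gave an adjusted p. The count depended on single libraries, as did the share of all genes called lower by edgeR. It was 6 without DMM replicate 2 (against 3.38% of all genes), 4 without PBS replicate 1 (2.19%), 2 without DMM replicate 3 (1.83%), 20 without DMM replicate 4 and 1 without PBS replicate 2 (2.06%), 4 (1.89%) or 5 (1.63%) or DMM replicate 5 (1.79%). That 1 member is 1.59% to 1.61% of the members tested, below the share of all genes in each of those 4 fits. The excess of members called lower after adjustment is thus not seen in them. At an unadjusted p with the same fold change limit, 22.6% to 25.4% of members were lower in those 4 fits. The share of all genes was 6.25% to 6.96%. Mmp15 alone kept its call in all 8 such fits. Mmp25 kept it in 3, Mmp2, Adamts2, Adamtsl5 and Loxl3 in 2, and Mmp7 and Mmp14 in 1. Log2 fold changes in these fits ranged from -1.48 to -1.97 for Mmp25, -1.23 to -1.74 for Mmp2 and -0.71 to -0.96 for Adamts2. The ranges were -0.59 to -0.85 for Adamtsl5, -0.68 to -0.93 for Loxl3, -0.56 to -0.78 for Mmp7 and -0.67 to -1.01 for Mmp14.

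Leaving out each library in turn was planned, while DMM replicate 4 was singled out, and the overlap of groups and the values of single genes were read without it, after it was seen to stand apart. In the 7 libraries that remain of the 8 without it, 20 members were called lower, against 7.61% of 16828 genes, and 0 higher, against 6.71%. The groups then did not overlap in 32 members that were lower, against 18.3%, and 1 that was higher, against 18.9%. The 10-, 8- and 7-library sets share libraries and are not independent of each other.

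**Figure D1:**
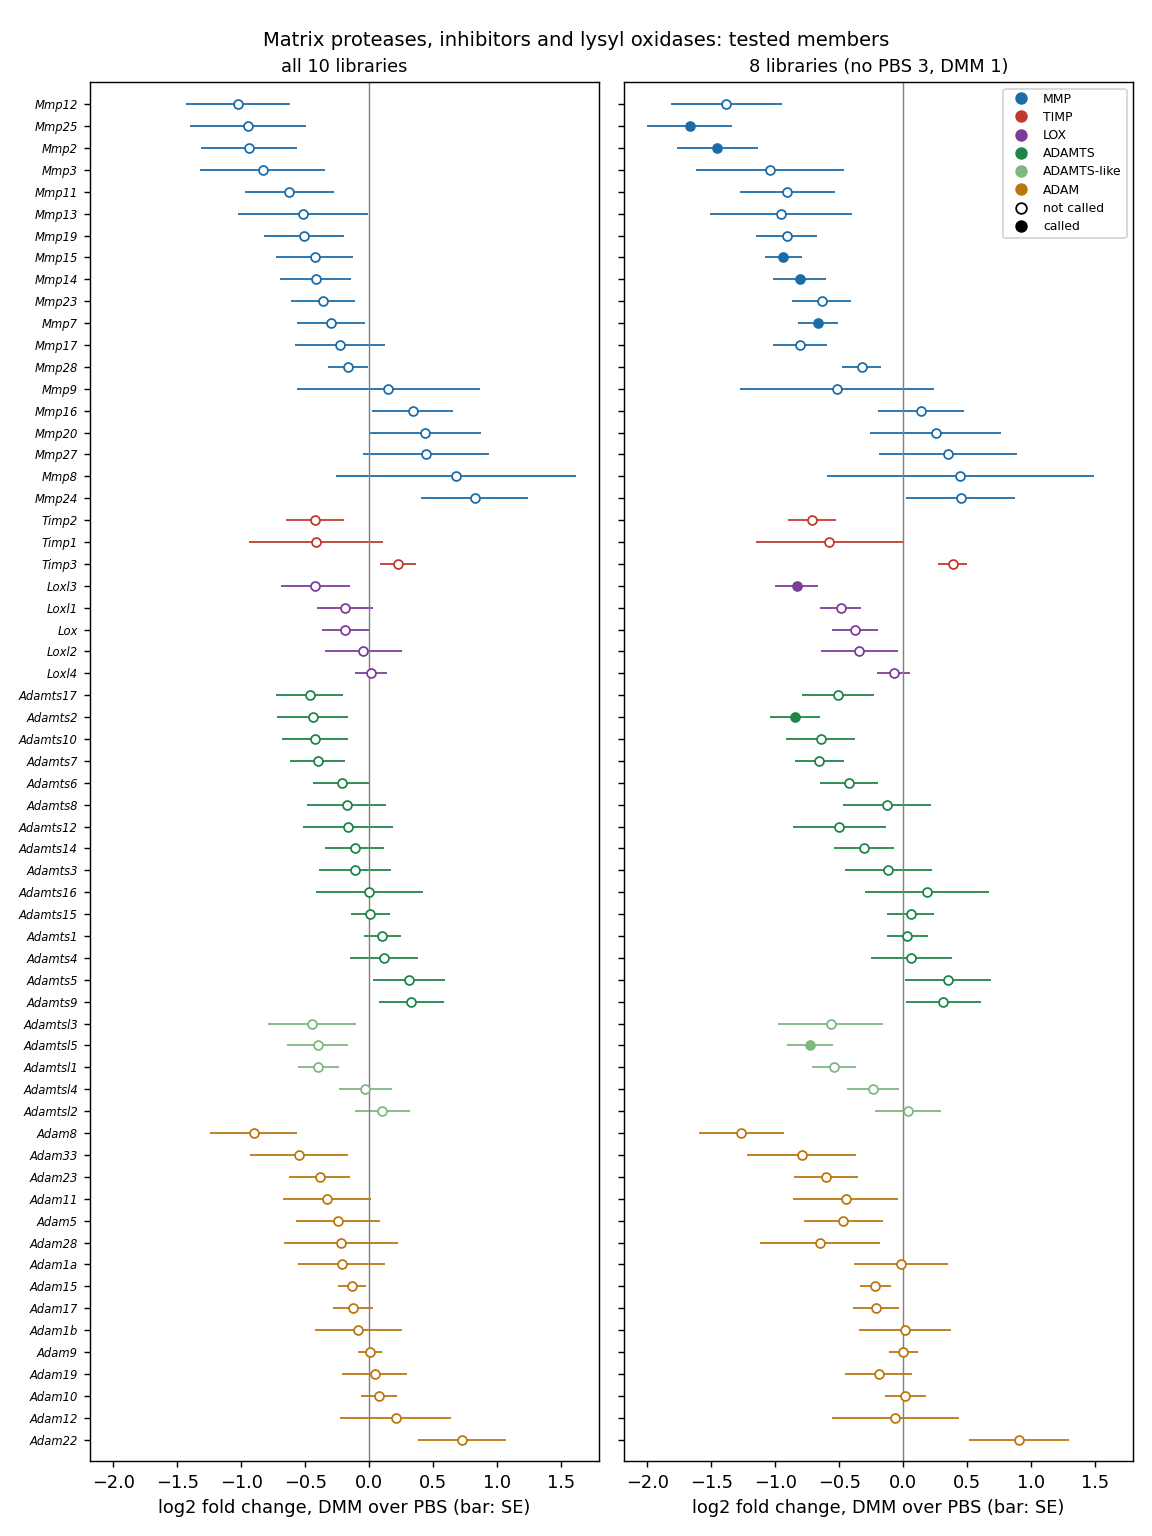
Log2 fold change (DMM over PBS, with SE) of the 62 tested members, by family, over all 10 libraries (left) and over 8 libraries (right). Filled points passed the adjusted test and the fold change limit: 0 on the left and 8 on the right.

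The gelatinase Mmp2 (ENSMUSG00000031740, chr8:92827291-92853420 in mm10) cuts denatured and basement membrane collagen. It measured 205, 162, 125, 171 and 191 CPM in PBS replicates 1 to 5 and 179, 102, 49.9, 33.1 and 81.6 CPM in DMM replicates 1 to 5. DMM replicate 1 lay within the PBS range, and the other 4 DMM libraries lay below every PBS library. Its log2 fold change was -0.94 ± 0.38 (SE) over 10 libraries, which was not called (edgeR quasi-likelihood Benjamini-Hochberg adjusted p = 0.418), and -1.45 ± 0.31 over 8 (adjusted p = 0.0274). Without DMM replicate 1 alone, Mmp2 and Mmp25 were the 2 members called lower over the remaining 9 libraries, with edgeR Benjamini-Hochberg adjusted p of 0.0408 and 0.0231, against 2.6% of all genes. Mmp9, the other gelatinase, gave 6.14, 6.83, 3.88, 27.6 and 8.47 CPM in PBS and 24.4, 2.33, 4.87, 23 and 4.13 CPM in DMM. PBS replicate 4 and DMM replicates 1 and 4 held its high values, and the groups overlapped. Its log2 fold change was 0.15 ± 0.71 over 10 libraries, -0.52 over 8 and -1.69 over 7 (edgeR Benjamini-Hochberg adjusted p = 0.0523, not called).

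Among membrane-type MMPs, Mmp14 (ENSMUSG00000000957, chr14:54431612-54445364) activates the Mmp2 proenzyme at the cell surface. Its values were 315, 332, 219, 414 and 358 CPM in PBS and 414, 211, 142, 282 and 176 CPM in DMM replicates 1 to 5. DMM replicate 1 was close to the highest PBS library and DMM replicate 4 lay between PBS replicates 3 and 1. The log2 fold change was -0.42 ± 0.28 over 10 libraries and -0.81 ± 0.21 over 8, where it was called (edgeR Benjamini-Hochberg adjusted p = 0.0496). The call was lost with RLE size factors, at -0.80 (edgeR Benjamini-Hochberg adjusted p = 0.0552). It was also lost with any library but DMM replicate 4 left out, at -0.67 to -0.86 (edgeR Benjamini-Hochberg adjusted p of 0.0835 to 0.144). Mmp15 (ENSMUSG00000031790, chr8:95352268-95375080) gave 28.9, 33.9, 19.2, 36.4 and 38.7 CPM in PBS and 44.9, 21.1, 16.9, 15.9 and 18.2 CPM in DMM. DMM replicate 1 was the highest of all 10 libraries, and PBS replicate 3 lay among the other DMM libraries. Over 8 libraries Mmp15 had the smallest p of the members, with a log2 fold change of -0.94 ± 0.14 (edgeR Benjamini-Hochberg adjusted p = 0.00757), against -0.42 ± 0.30 and 0.581 over 10. Mmp25 (ENSMUSG00000023903, chr17:23628311-23645277), a membrane-anchored enzyme of leukocytes, measured 9.32, 15.3, 9.84, 12.2 and 18.5 CPM in PBS and 16.4, 4.47, 2.55, 6.83 and 3.53 CPM in DMM. Again only DMM replicate 1 fell in the PBS range. Its log2 fold change was -0.95 ± 0.45 over 10 libraries and -1.67 ± 0.33 over 8 (edgeR Benjamini-Hochberg adjusted p = 0.0198). Mmp24 was measured at 1.01 to 6.34 CPM, and its log2 fold change was 0.82 over 10 libraries and -0.12 over 8 without DMM replicate 4.

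Matrilysin, Mmp7 (ENSMUSG00000018623, chr9:7692090-7699585), is made by tubular epithelium. It measured 39.8, 36.4, 16.5, 41.5 and 40.1 CPM in PBS and 42.3, 22.6, 30.2, 19.2 and 27.5 CPM in DMM. PBS replicate 3 was the lowest of all 10 libraries and DMM replicate 1 the highest, and the remaining DMM libraries lay below the remaining PBS libraries. The log2 fold change was -0.30 ± 0.27 over 10 libraries and -0.67 ± 0.15 over 8 (edgeR Benjamini-Hochberg adjusted p = 0.0343). Over 7 libraries it was -0.56 (adjusted p = 0.00419), under the fold change limit, so that Mmp7 alone of the 8 members called over 8 libraries was not called there. Macrophage elastase, Mmp12, gave 59.2, 40.7, 42.6, 40.6 and 72.2 CPM in PBS and 43.5, 20.2, 6.69, 36.2 and 18.7 CPM in DMM. The 4 lowest values were DMM libraries, and DMM replicate 1 lay among the PBS libraries. Its log2 fold change of -1.03 ± 0.40 was the most negative of the members over 10 libraries (edgeR Benjamini-Hochberg adjusted p = 0.413), and it was not called over 8 (-1.38, adjusted p = 0.0972) but was over 7 (-1.81, adjusted p = 0.00569). Adam8, a leukocyte ADAM, measured 36.8, 26.7, 29, 62.5 and 42.6 CPM in PBS and 35.4, 17.3, 11.3, 28 and 13.6 CPM in DMM, with a log2 fold change of -0.90 ± 0.34 over 10 libraries. Like Mmp2 and Mmp12, it passed the unadjusted p and the fold change limit over 10 libraries and was not called after adjustment. Adam8 was not called over 8 libraries either, at -1.27 (edgeR Benjamini-Hochberg adjusted p = 0.0541), and was called over 7, at -1.59 (adjusted p = 0.00325).

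The stromelysins Mmp3 and Mmp11 and the collagenase Mmp13 were not called over 10 or 8 libraries. Mmp3 measured 15.5, 15.1, 12.2, 44.5 and 16 CPM in PBS and 13.6, 9.2, 4.76, 24.7 and 5.65 CPM in DMM. Mmp13 gave 3.97, 6.83, 5.34, 13 and 8.12 CPM in PBS and 9.51, 2.14, 1.7, 9.18 and 3.46 CPM in DMM. PBS replicate 4 was the highest library for both, and DMM replicate 4 was the highest DMM library for Mmp3. The log2 fold changes over 10 libraries were -0.83 ± 0.49 for Mmp3 and -0.52 ± 0.51 for Mmp13. Mmp11 gave 70.0, 55.9, 51.5, 61.3 and 55.4 CPM in PBS and 61.4, 46.1, 35, 10.3 and 38.2 CPM in DMM, where DMM replicate 4 was the lowest library. Its log2 fold change of -0.62 ± 0.34 over 10 libraries was not called. Over 8 libraries the values were -1.04 for Mmp3, -0.95 for Mmp13 and -0.91 for Mmp11. All 3 were called over 7 libraries, at -1.80, -1.71 and -0.61 (edgeR Benjamini-Hochberg adjusted p = 0.0159, 0.014 and 0.00478).

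The inhibitors did not follow one direction. Timp1 measured 48.1, 57.8, 30.1, 178 and 68.6 CPM in PBS and 50.5, 46, 28.6, 131 and 31.1 CPM in DMM. PBS replicate 4 and DMM replicate 4 were high and the groups overlapped, with a log2 fold change of -0.42 ± 0.52 over 10 libraries and 0.17 without PBS replicate 4. It was -0.58 over 8 libraries and -1.33 over 7 (edgeR Benjamini-Hochberg adjusted p = 0.0513, not called). Timp2 gave 454, 488, 357, 453 and 463 CPM in PBS and 516, 349, 274, 185 and 325 CPM in DMM. Its log2 fold change was -0.42 ± 0.23 over 10 libraries and -0.71 ± 0.19 over 8, short of the threshold (edgeR Benjamini-Hochberg adjusted p = 0.0547). DESeq2 called Timp2 over 8 libraries (Benjamini-Hochberg adjusted p = 0.00996). Of the 8-library fits with 1 library left out, edgeR called it only without DMM replicate 2 (-0.83, adjusted p = 0.0493). Over 7 libraries Timp2 was at -0.56 (edgeR Benjamini-Hochberg adjusted p = 0.00205), under the fold change limit. Timp3, a matrix-bound inhibitor, gave 549.6, 589.9, 749, 479 and 569 CPM in PBS and 571, 709, 667, 757 and 729 CPM in DMM. PBS replicate 3 was the highest PBS library and DMM replicate 1 the lowest DMM library, the reverse of Mmp7, Mmp14 and Mmp15, and the log2 fold change was 0.23 ± 0.14 over 10 libraries and 0.39 ± 0.11 over 8, where it was not called. Summed over the 4 TIMPs, libraries lay between 970.4 and 1138 CPM, while the 22 MMPs summed to 550 to 952 CPM in PBS and 346 to 942 CPM in DMM.

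**Figure D2:**
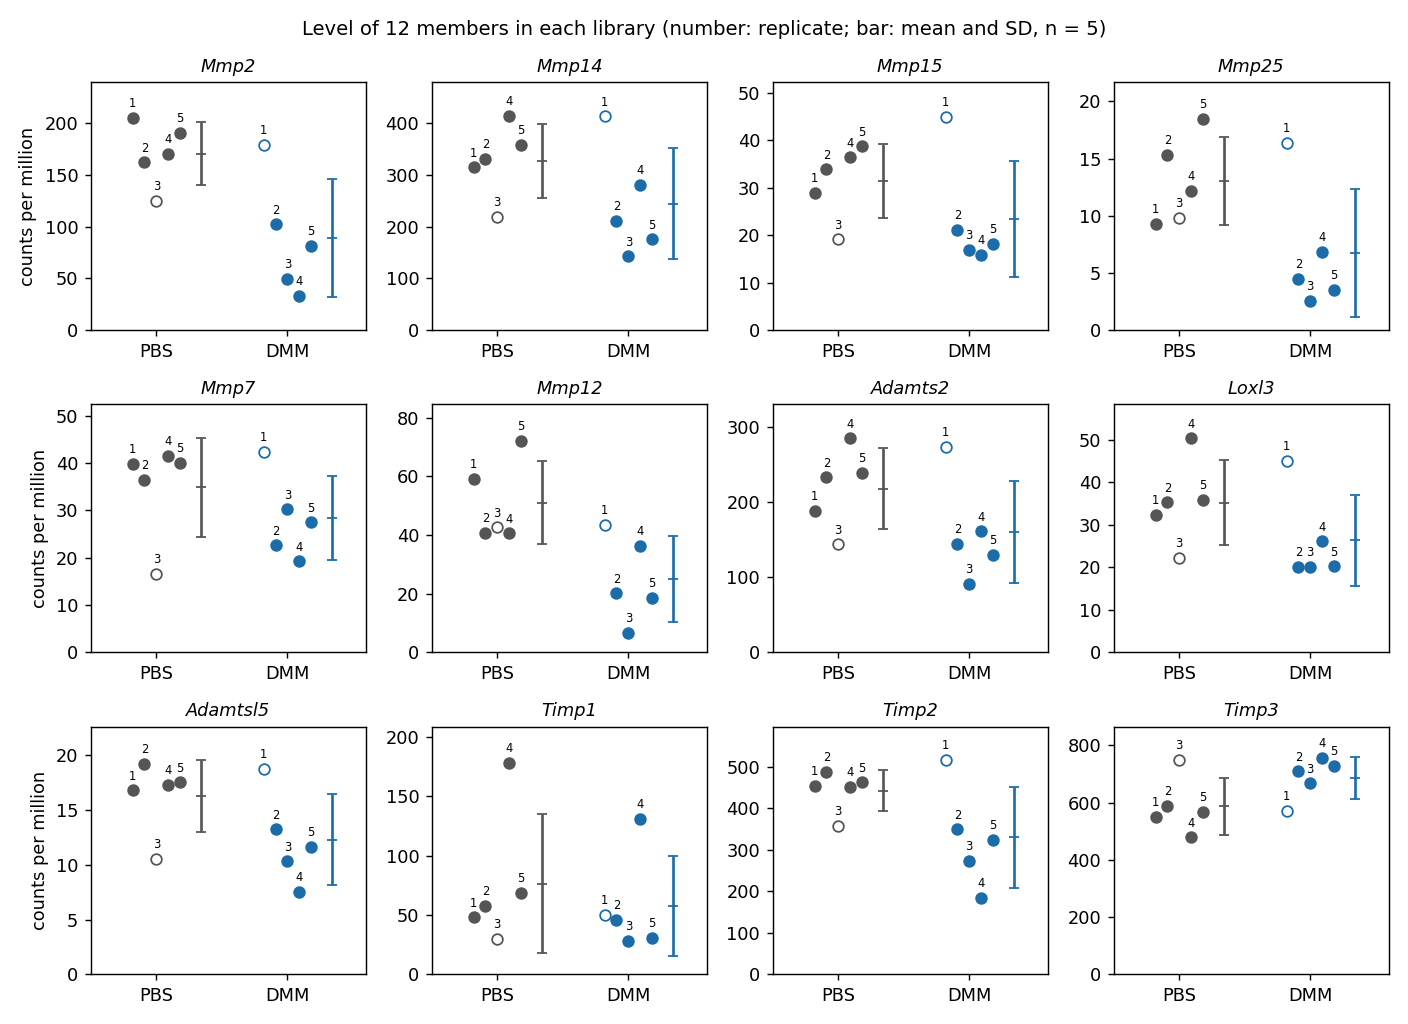
Level (CPM) of 12 members in each library, with the replicate number above each point and the mean and SD of 5 libraries beside it. Open points are PBS replicate 3 and DMM replicate 1, which lie at the low end of PBS and the high end of DMM for Mmp14, Mmp15, Mmp7, Adamts2 and Loxl3.

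Adamts2 (ENSMUSG00000036545, chr11:50602084-50807573) trims the amino-terminal propeptide of fibrillar procollagens. It measured 188, 233, 144, 285 and 239 CPM in PBS and 274, 144, 91.5, 161 and 130.0 CPM in DMM. DMM replicate 1 was the second highest of the 10 libraries. The log2 fold change was -0.44 ± 0.27 over 10 libraries and -0.84 ± 0.19 over 8 (edgeR Benjamini-Hochberg adjusted p = 0.0343). The 6 tested ADAMTS that cut aggrecan and versican had a median log2 fold change of 0.11 over 10 libraries and 0.06 over 8, within a range of -0.18 to 0.33 over 10. Over 7 libraries, without DMM replicate 4, the median was -0.15 with 5 of the 6 below 0, so its sign turned on that library. Adamts1, the most abundant, gave 380.5, 527, 381, 519 and 493 CPM in PBS and 505, 527, 495, 562 and 381 CPM in DMM. Adamts5 gave 78.2, 88.9, 76, 80.2 and 82.8 CPM in PBS and 82.3, 71.3, 75.1, 203 and 71.4 CPM in DMM. DMM replicate 4 alone was high for Adamts5, whose log2 fold change was 0.31 over 10 libraries and -0.11 without that library. The same library was high for Adamts9, at 142 CPM against at most 75.9 elsewhere, and for Adam22, at 40.5 CPM against at most 15.9. Adamts12 gave 55.6, 59.6, 35, 71.8 and 62.1 CPM in PBS and 76.8, 34.9, 25.6, 87.1 and 28.8 CPM in DMM, with a log2 fold change of -0.17 ± 0.35 over 10 libraries and -0.50 ± 0.36 over 8, not called in either. Over 7 libraries the groups did not overlap and it was called, at -1.07 (edgeR Benjamini-Hochberg adjusted p = 0.000556). Adamtsl5 (ENSMUSG00000043822, chr10:80339110-80348412), an ADAMTS-like protein with no protease domain, measured 16.8, 19.2, 10.6, 17.3 and 17.5 CPM in PBS and 18.8, 13.2, 10.3, 7.55 and 11.7 CPM in DMM. It was called over 8 libraries at a log2 fold change of -0.73 ± 0.18 (edgeR Benjamini-Hochberg adjusted p = 0.0463) and not over 10 (-0.40 ± 0.24). Adamtsl1 had a log2 fold change of -0.40 ± 0.16 over 10 libraries and -0.54 ± 0.17 over 8. It was not called in either (edgeR Benjamini-Hochberg adjusted p = 0.425 and 0.0996). Over 7 libraries Adamtsl1 was called, at -0.62 (edgeR Benjamini-Hochberg adjusted p = 0.0179).

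Loxl3 (ENSMUSG00000000693, chr6:83034173-83052562) was the 1 lysyl oxidase called over 8 libraries. Its values were 32.4, 35.3, 22.2, 50.3 and 35.9 CPM in PBS and 45, 20.2, 20.1, 26.1 and 20.2 CPM in DMM. DMM replicate 1 was exceeded only by PBS replicate 4. The log2 fold change was -0.42 ± 0.27 over 10 libraries and -0.83 ± 0.17 over 8 (edgeR Benjamini-Hochberg adjusted p = 0.0223). Loxl3 overlaps Htra2 on the other strand, and without a stated strand setting their reads cannot be told apart, as holds for Timp1 with Syn1, Timp3 with Syn3 and Mmp11 with Chchd10. Lox gave 184, 234, 164, 269.5 and 255 CPM in PBS and 246, 192, 134, 218 and 182 CPM in DMM. Its groups overlapped, as did those of Loxl2, and the log2 fold changes over 10 libraries were -0.19 ± 0.19 for Lox, -0.19 ± 0.22 for Loxl1 and -0.05 ± 0.30 for Loxl2. Over 8 libraries they were -0.38, -0.49 and -0.34, none called, with Loxl1 lower in every DMM library than in any PBS library. Over 7 libraries they were -0.48, -0.36 and -0.77 (edgeR Benjamini-Hochberg adjusted p = 0.0462, 0.017 and 0.00215), and Loxl2 alone of the 3 also passed the fold change limit. Loxl4 stayed between 11.7 and 16.4 CPM in all 10 libraries.

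In the broad sheddases the groups overlapped. Adam10, which cuts Notch and many adhesion molecules, gave 216, 246, 209.6, 256 and 249 CPM in PBS and 261, 219, 214, 327 and 218 CPM in DMM. Adam17, which releases tumor necrosis factor, gave 108, 104, 97.8, 110.3 and 111 CPM in PBS and 111, 92.4, 76.3, 132 and 74.5 CPM in DMM. Their log2 fold changes over 10 libraries were 0.07 ± 0.14 and -0.13 ± 0.16. Over 7 libraries Adam17 was lower in every DMM library than in any PBS library, at -0.42 (edgeR Benjamini-Hochberg adjusted p = 0.00533), short of the fold change limit. Adam12, an ADAM of activated mesenchymal cells, gave 76.3, 90.6, 61.8, 102 and 96.4 CPM in PBS and 142, 67.2, 38.4, 205 and 40.2 CPM in DMM. DMM replicates 1 and 4 were its highest libraries and the other 3 DMM libraries lay below the PBS median, and its log2 fold change was 0.21 over 10 libraries and -0.91 over 8 without DMM replicate 4.

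Genes that act with the members were read from lists, and over 10 libraries 0 genes of these lists were called by edgeR, while 1 plasminogen gene and 1 of the cathepsins and other proteases, both lower, passed the unadjusted p with the fold change limit. Of all tested genes, edgeR called 3.56% lower and 2.73% higher over 8 libraries. At an unadjusted p with the fold change limit, the shares were 4.11% lower and 1.91% higher over 10 libraries. Over 8 they were 7.24% and 6.45%. Of 14 tested collagen processing partners, 3 were called lower over 8 libraries and 0 over 10 by edgeR. Serpinh1, the collagen chaperone, and Bmp1, the procollagen C-proteinase, were among them, with log2 fold changes over 8 libraries of -0.82 ± 0.16 and -0.85 ± 0.15. Of 16 matrix substrates, 4 were called lower over 8 libraries (Col1a2, Col5a1, Bgn and Lum), with a list median of -0.68, against 0 at an unadjusted p and a list median of -0.42 over 10. Of 12 tested cathepsins and other matrix proteases, Ctss and Htra3 were called lower over 8 libraries and Mep1a higher. Over 8 libraries 0 of 14 regulators of these proteases were called by edgeR, 0 passed the unadjusted p, and of 6 tested plasminogen genes Serpinf2 alone was called, higher.

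Markers of cell types also differed between libraries. In bulk tissue fewer cells of a type and less RNA per cell cannot be told apart. Over 10 libraries edgeR called 0 markers of any type. At an unadjusted p with the fold change limit 0 fibroblast, 5 macrophage, 4 T cell and 0 smooth muscle markers were lower and 2 proximal tubule markers higher. The shares of all tested genes by that rule were 4.11% lower and 1.91% higher. Over 8 libraries 3.56% of all tested genes were called lower and 2.73% higher. Summed CPM of the 10 fibroblast markers was 6669, 9812, 5263, 14480 and 9228 in PBS replicates 1 to 5 and 11320, 5344, 3752, 7379 and 4303 in DMM replicates 1 to 5. Col1a1 was the most abundant, and 3 of the 10 were called lower over 8 libraries. PBS replicate 3 was lowest in PBS and DMM replicate 1 highest in DMM, as for many members. The 9 macrophage markers summed to 2248, 2337, 1796, 2055 and 2451 CPM in PBS and 2129, 1502, 1207, 929 and 1221 CPM in DMM, with Lyz2 the most abundant, and 2 were called lower over 8 libraries. The 9 proximal tubule markers summed to 2201, 2237, 5245, 988 and 1725 CPM in PBS and 1590, 4321, 5335, 4485 and 6409 CPM in DMM, and 3 were called higher over 8. Of 6 T cell markers 1, Cd4, was called lower over 8 libraries, as were all 3 smooth muscle markers. The smooth muscle list had a median log2 fold change of -1.70 over 8 libraries and -0.63 over 10, and DMM replicate 1, left out of the 8, had the highest sum of all libraries (246 CPM, against 59.1 to 96.5 CPM in the other DMM libraries and 82.0 to 192 CPM in PBS). The part of these markers in the differences of the members was not tested. The 8 interferon response genes were called lower over 8 libraries and 0 of 8 over 10 by edgeR, with all 8 past the unadjusted p over 10 and a summed level of 1733 to 3082 CPM in PBS, 2197 CPM in DMM replicate 1 and 209 to 281 CPM in the other DMM libraries. Neutrophil markers, led by S100a9, had their highest sums in replicate 4 of PBS (103 CPM) and of DMM (77.2 CPM), against 17.8 to 32.2 CPM elsewhere, and 0 of the 4 tested were called, or passed the unadjusted p, by edgeR over 10 or 8 libraries. Those were the highest PBS and DMM libraries for Timp1, Mmp3 and Mmp8, and also for members such as Adam10 and Adam12. Of the 62 tested members, PBS replicate 4 was highest in PBS for 29 and DMM replicate 4 highest in DMM for 24. For Mmp9, Mmp25 and Adam8 the highest DMM library was DMM replicate 1. The male germ cell markers Prm2, Tnp1, Tnp2, Acrv1 and Odf1 had at most 3 counts in every library. Of the tested markers of injured tubule (5), podocyte (4) and endothelium (5), 0 were called by edgeR and 0 passed the unadjusted p over 10 or 8 libraries. Of 3 collecting duct markers 0 were called and 1 passed the unadjusted p over 8, higher. Of 2 loop of Henle markers Slc12a1 was called higher over 8 libraries, at a log2 fold change of 1.53 (edgeR Benjamini-Hochberg adjusted p = 0.0206), and 0 over 10, where 0 passed the unadjusted p.

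Several MMP genes lie in one cluster on chromosome 9. RefSeq promoters (GRCm38.p6, 250 bases before to 50 after the start) were matched by symbol for 53 of the 88 members, which have 58 promoters in the table, and 3 motifs were searched on both strands. TGANTCA, the AP-1 motif, was found in 12 of the 58 (20.7%) and in 7.81% of all 32851 promoters. Of those 12, 7 belong to MMPs of the cluster (Mmp1b, Mmp3, Mmp7, Mmp10, Mmp12, Mmp13 and Mmp20). The promoters of Mmp8 and Mmp27, which also lie in the cluster and were tested, lack it. TATAAA was in 14 of the 58 (24.1%) and 13.62% of all promoters, and GAAANNGAA, the core of the interferon-stimulated response element, in 3 (5.2%) and 8.56%. A match is a description of the letters only, and the share of members is not a test. Of the tested cluster members, the promoters of Mmp3, Mmp7, Mmp12 and Mmp13 are printed because these genes share the motif and differ in level between libraries. Mmp20, which was also tested and reached at most 1.51 CPM, is left out. Mmp7 and Mmp12 each have another promoter in the table, which lacks TGANTCA and is not printed. Capitals mark the AP-1, TATAAA and GAAANNGAA letters on either strand, all 4 genes lie on the plus strand, and the windows are chr9:7445572-7445871 (Mmp3), chr9:7691840-7692139 (Mmp7), chr9:7347124-7347423 (Mmp12) and chr9:7272264-7272563 (Mmp13).
Mmp3: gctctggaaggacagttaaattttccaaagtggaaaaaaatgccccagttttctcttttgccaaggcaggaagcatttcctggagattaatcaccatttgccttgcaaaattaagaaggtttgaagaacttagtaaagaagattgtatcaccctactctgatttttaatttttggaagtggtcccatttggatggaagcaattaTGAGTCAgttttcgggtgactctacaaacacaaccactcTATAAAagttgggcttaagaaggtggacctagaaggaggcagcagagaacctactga
Mmp7: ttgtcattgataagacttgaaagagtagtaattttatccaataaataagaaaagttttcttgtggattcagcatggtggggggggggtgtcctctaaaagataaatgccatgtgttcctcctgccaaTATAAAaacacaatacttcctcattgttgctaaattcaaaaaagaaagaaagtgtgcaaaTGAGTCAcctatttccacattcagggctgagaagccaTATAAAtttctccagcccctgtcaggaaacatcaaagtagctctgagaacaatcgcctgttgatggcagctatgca
Mmp12: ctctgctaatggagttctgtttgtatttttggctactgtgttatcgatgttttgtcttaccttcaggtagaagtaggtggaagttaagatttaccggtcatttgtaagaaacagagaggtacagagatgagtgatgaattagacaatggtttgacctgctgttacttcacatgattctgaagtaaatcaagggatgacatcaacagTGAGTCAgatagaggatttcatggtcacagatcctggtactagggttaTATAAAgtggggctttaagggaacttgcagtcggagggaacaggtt
Mmp13: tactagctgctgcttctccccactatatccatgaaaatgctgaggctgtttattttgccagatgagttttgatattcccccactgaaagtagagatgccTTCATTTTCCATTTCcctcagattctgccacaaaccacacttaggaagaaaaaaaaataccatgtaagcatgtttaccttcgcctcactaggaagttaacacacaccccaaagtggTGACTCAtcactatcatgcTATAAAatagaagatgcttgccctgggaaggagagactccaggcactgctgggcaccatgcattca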

How the data were processed

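Kidney RNA was sequenced by the authors and aligned to mm10; HISAT2 2.0.5 is named in the submitters' processing notes, while the counting tool, annotation and strand setting are not given in the sources used here. The deposited table holds raw counts and FPKM per library, the gene length in base pairs used by the authors, and the authors' signal, which is group means of size-factor-normalized counts from DESeq2. The means served only to find which libraries they hold. Columns of the authors' own fold changes and p-values were not used, and 0 per-sample columns were left out. Counts were tested here with edgeR 4.0.16 (R 4.3.3, TMM, filterByExpr, quasi-likelihood F test, Benjamini-Hochberg adjustment over all tested genes), and DESeq2 1.42.0 was an alternative. The test was run on simulated data first. Genes were called at an adjusted p below 0.05 and a fold change above 1.5. Named genes were members called in either set, the 5 of smallest p in each direction over 10 libraries, and a fixed list of fibrosis and matrix genes; genes singled out beyond these were chosen after their values were seen. Alternatives changed the test, scaling, filter, genes tested, threshold, replicate block and libraries. The members and lists were chosen with earlier results of these data known. The count of libraries lowest or highest in their group, the shares of all genes called under the alternatives, the count of fits that keep a call, and the overlap of groups and single-gene values over 8 libraries less DMM replicate 4, were added after values were seen; the calls with each library left out in turn were planned. The result of 1 further gene list is not reported here.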

Additional observations from a re-analysis of the deposited data

Results flagged for a closer look

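A library was singled out where its distance from the nearest other library of its group, divided by the range of the group, both taken on log2 CPM with a prior count of 2, was above 0.71, which chance reaches in about 1 in 20 groups of 5. Of 64 groups (32 named genes in PBS and in DMM) 8 were singled out. In PBS replicate 3, Mmp7 was low at 16.5 CPM, Adamtsl5 at 10.6 CPM and Timp2 at 357 CPM. In DMM replicate 1, Mmp15 was high at 44.9 CPM. In DMM replicate 4, Adam22 was high at 40.5 CPM, Adamts9 at 142 CPM and Adamts5 at 203 CPM. In PBS replicate 4, Mmp3 was high at 44.5 CPM. PBS replicate 3 and DMM replicate 1 are the libraries with a weight of 0 in the deposited group means.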

How the results depend on the processing

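The median log2 fold change of tested members stayed below 0 under every alternative run, from -0.12 to -0.32 over 10 libraries and from -0.30 to -0.54 over 8. The counts of calls did not. Over 10 libraries the count called lower was 0 under each alternative except leaving out libraries, where it ranged from 0 to 2 (2 without DMM replicate 1, 3.23% of members against 2.6% of all genes). Over 8 libraries the 8 members called lower (3.56% of all genes) became 14 with DESeq2 (4.51%), 1 at an adjusted p below 0.01 (1.32%) and 1 to 20 when 1 library was left out (1.63% to 7.61%). In the 4 of those 8 fits that called 1 member, the members' share of adjusted calls was below that of all genes. At an unadjusted p with the same fold change limit, 22.6% to 25.4% of members were lower there, against 6.25% to 6.96% of all genes. With the replicate number as a block (replicate block) 0 were called over 8 libraries, as were 0 of all genes. At an unadjusted p with the same fold change limit, 20 were lower over 8 libraries with this block (32.3%, against 6.19% of all genes). Over 10 libraries 5 passed it (8.06%, against 4.73% of all genes). The sources used here do not say whether the replicate numbers pair mice. Same-numbered libraries, as deviations from their group mean, correlated at -0.06, 0.0792, 0.341, 0.124 and -0.223. Only 1 PBS library, replicate 2, correlated best with its own number. Such correlations cannot settle whether the mice were paired, since outlying libraries such as DMM replicate 4 weigh on them. At an unadjusted p over 10 libraries the 3 lower members ranged from 1 (without PBS replicate 1 or 5 or DMM replicate 2 or 5, against 3.08% to 3.59% of all genes) to 16 (without DMM replicate 1, 6.74%) with 1 library left out, and the 0 higher members became 1 with DESeq2 (2.59%), 1 with no filter (2.26%) and 0 to 2 with 1 library left out (2 without DMM replicate 5, 1.73%). The cause was not tested.

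Among single genes 551 values kept direction and side of the threshold, 25 passed it and 32 changed sign, none of these 32 called over 10 libraries. Over 8 libraries the log2 fold change turned to -0.52 for Mmp9, -0.06 for Adam12 and -0.07 for Loxl4. Without DMM replicate 4 as well, a choice made after seeing the data, it turned to -0.12 for Mmp24, -0.11 for Adamts9, -0.18 for Adamts5, -1.69 for Mmp9, -0.16 for Adam10, -0.91 for Adam12, -0.04 for Adamts1, -0.23 for Adamts4 and -0.05 for Loxl4. Over 10 libraries with 1 library left out in turn the value ranged from -0.01 to 0.43 for Adamts9, -0.11 to 0.43 for Adamts5, -0.05 to 0.13 for Adam10, -0.25 to 0.41 for Adam12 and -0.11 to 0.32 for Adamts4, each lowest without DMM replicate 4. It ranged from -0.31 (without DMM replicate 1) to 0.89 for Mmp9, which was also -0.25 without DMM replicate 4 and -0.06 without PBS replicate 3, from -0.97 to 0.17 (without PBS replicate 4) for Timp1, from -0.27 to 0.11 for Loxl2 and from -0.08 to 0.05 for Loxl4. Loxl2 was 0.05, 0.11 and 0.07 without DMM replicate 2, 3 and 5 and 0.03 without PBS replicate 4 or 5, and Loxl4 was -0.08 without DMM replicate 1 and -0.01 without PBS replicate 5. With the replicate block it was -0.10 for Mmp9 and -0.09 for Adam12, and with library size alone -0.02 for Adam10 and -0.07 for Loxl4. Of these genes Adam12 alone was past the threshold in a set where its sign had turned, at an adjusted p of 0.00787 by edgeR with Benjamini-Hochberg adjustment over 8 libraries less DMM replicate 4. The cause was not tested.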

Other observations

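PBS replicate 4 and DMM replicate 4 held the highest Timp1 of their groups, at 178 and 131 CPM, and the highest Mmp8, at 5.80 and 10.8 CPM. Mki67 was 513 CPM in DMM replicate 4 and at most 95.8 CPM in the other libraries, and Ptgs2 was 162 CPM there and at most 37.9 CPM elsewhere. Adam9 varied little, from 126 to 167 CPM over the 10 libraries.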
